A study of Mus musculus with 18 samples.

Results

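Posterior palate of mutant embryos was set against anterior palate of control embryos, with 6 arrays in each group, or 12 of the 18 arrays of the series, picked by their titles and not by any measured value. The mutants were Tgfbr2 fl/fl mice that carried K14-Cre, and the controls were Tgfbr2 fl/fl mice; the labels give strain C57BL/6J, age E15.5 and undetermined sex for both. Every embryo in the comparison therefore carried the floxed receptor allele. K14-Cre is a recombinase under a keratin promoter, so the deletion is designed to act in epithelium, and mesenchyme, muscle, bone and nerve of the mutants keep the receptor. Total RNA of whole palatal tissue was measured, so a lower level of a gene in fewer cells and a lower level in each cell cannot be told apart. The comparison differs in region, in genotype, in litter and in labelling controls at the same time, and these cannot be told apart from these 12 arrays. Its question is how much of the posterior and muscular pattern of expression is present in the mutant posterior palate when it is read against anterior tissue. The 6 control posterior arrays stayed out of the main test of this comparison, and their levels, with a fit over all 18 arrays, are given beside some results.

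The secondary palate grows from paired shelves whose mesenchyme differs along its length. Anterior mesenchyme, which forms hard palate, is known for the homeobox factors Shox2, Alx1 and Msx1, and posterior mesenchyme, which forms soft palate, for Meox2 and Tbx22. Skeletal muscle of the soft palate arises from myoblasts that are committed by Myf5 and Myod1, differentiate under Myog, fuse into fibres and then build sarcomeres and the membranes that store and release calcium. TGF-beta ligands signal through Tgfbr2 and Tgfbr1 to SMAD proteins, and in palate epithelium this pathway is known for its part in fusion of the shelves.

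Levels are RMA values on the log2 scale, so a difference of 1 is a 2-fold difference. Array means lay between 6.27 and 6.37. Labelling spike-in controls averaged 9.32 to 11.30 on control anterior arrays and 7.18 to 8.84 on mutant arrays, with no overlap. On control posterior arrays they averaged 9.35 to 11.00. Labelling therefore cannot be told apart from genotype and litter, and its part in the results was not tested. Control anterior arrays 1 to 3 had labelling spike-ins of 9.32 to 9.47 and arrays 4 to 6 of 10.48 to 11.30. Mutant arrays 1 to 3 had array medians of 5.87 to 5.90 and arrays 4 to 6 of 5.77 to 5.78, so each group falls into sets 1 to 3 and 4 to 6 that the labels do not name. Mutant array 1 stood apart from the rest: its mean absolute difference to the nearest array was 0.436, against 0.210 to 0.253 for the other mutant arrays and 0.182 to 0.201 for the anterior ones. The median SD over genes was 0.152 in control anterior and 0.232 in mutant arrays. The titles list 6 samples per group where the design text gives 5, and the sources do not say whether a sample is 1 embryo or several, so the p-values here reflect only how these samples vary, which may be technical.

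Of 18193 genes tested with limma, 3175 passed a Benjamini-Hochberg adjusted p under 0.05, 1663 higher and 1512 lower in mutant posterior palate, and 588 of these differed at least 2-fold (374 higher, 214 lower). These shares, 17.5% of all genes called, 9.14% called higher and 8.31% called lower, are the background for each gene list below. The lists were chosen with earlier results of these data known, so their counts are descriptions and not tests. The 2 groups did not overlap for 1783 genes, or 9.8% of those tested. The median difference over all genes was 0.02. Without control anterior array 3 the count of lower genes was 998. After each array was centred on its median, 31.9% of called genes were higher in the mutant, against 52.4% as deposited, and the median difference over all genes was then -0.06. With the sets of arrays as a random block, 1050 genes were called. List members named below without a call, other than those of the anterior, posterior and regulator lists, were mostly chosen after their values were seen.

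**Figure D1:**
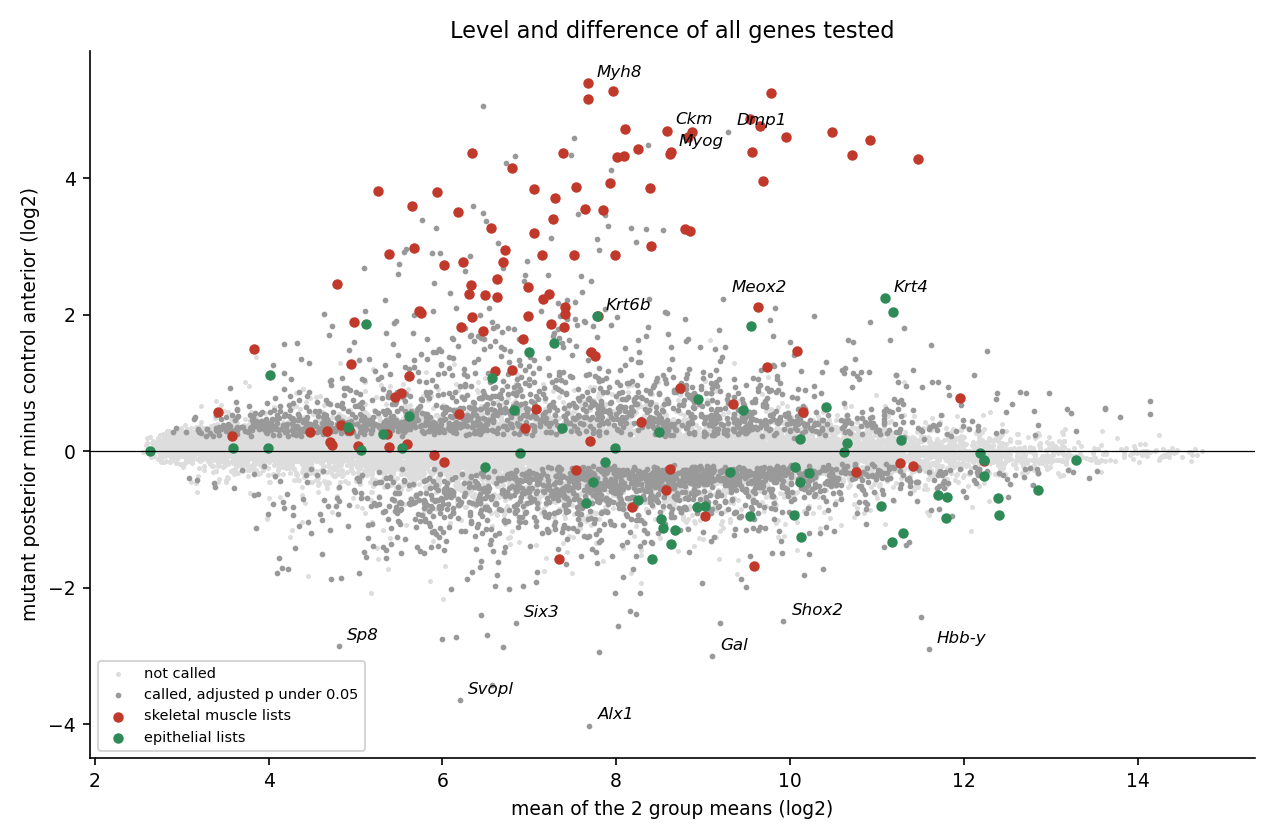
Difference between mutant posterior and control anterior palate (vertical axis, log2) against the mean of the group means (horizontal axis, log2) for 18193 genes, with called genes in dark grey, uncalled genes in light grey, members of the skeletal muscle lists in red and members of the stratified, basal and simple epithelium lists in green. Points above 4 are mostly muscle genes, and Alx1 at -4.02 is the lowest point.

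Genes of anterior mesenchyme were low in the mutant posterior palate. Alx1, a homeobox factor of anterior facial mesenchyme, ranged over 8.92, 9.69 and 10.52 (lowest, median, highest) on control anterior arrays and over 4.93, 5.78 and 6.17 on mutant arrays. No mutant array came within 2 log2 units of the lowest anterior one, and the difference was -4.02 (SE 0.28, adjusted p = 1.10e-05, limma), or 16.3-fold. Its other probe set differed by -3.48 (adjusted p = 9.60e-05 in a fit over all probe sets). Shox2, a homeobox factor that drives growth of the anterior shelf, ranged over 10.44, 11.19 and 11.74 in anterior and 7.52, 8.74 and 9.99 in mutant tissue. Mutant array 1 was the highest and array 6 the lowest of the mutant arrays, all 6 lay under every anterior array, and Shox2 fell by 2.49 on the log2 scale (SE 0.34, adjusted p = 0.000644). Cyp26b1, an enzyme that breaks down retinoic acid, ranged over 8.64, 8.96 and 9.63 against 6.91, 7.23 and 7.91, again without overlap, with a difference of -1.72 (SE 0.18, adjusted p = 0.000121).

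Of 10 measured genes in the anterior mesenchyme list, 5 were lower and none higher, with a median of -0.95 against 0.02 over all genes. Msx1, a homeobox factor of the anterior shelf and of teeth, read 9.83 on mutant array 1 and 5.86 to 7.64 on the other mutant arrays, against 8.5 to 10.26 on anterior arrays. It was called lower at -2.39 (SE 0.60, adjusted p = 0.0179), but its second probe set differed by -0.83 (adjusted p = 0.0923), and with the sets as a block the adjusted p was 0.0896. Pax3, a paired-box factor of neural crest and muscle precursors, was lower by -1.59 (SE 0.44, adjusted p = 0.027). The Pax3 call was lost without control anterior array 1, 2 or 3 or mutant array 3 or 5, at adjusted p-values from 0.0522 to 0.0579, and with the sets as a block at 0.0929. Bmp4, a ligand that Msx1 maintains in anterior mesenchyme, stood the other way, at 8.70 ± 0.60 in anterior and 9.59 ± 0.59 in mutant palate (SD, n = 6), and was not called (0.88, adjusted p = 0.0658). It passed the threshold without control anterior array 2 (1.03, adjusted p = 0.045), mutant array 1 (1.01, adjusted p = 0.0456) or mutant array 2 (1.00, adjusted p = 0.0471). The remaining members, Msx2, Alx4, Hand1 and Tfap2b, differed by -0.32 to 0.19 and none was called.

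Genes of posterior mesenchyme gave a mixed picture in the mutant. Meox2, a homeobox factor of posterior palate mesenchyme, ranged over 7.78, 8.03 and 8.66 in anterior and 9.10, 10.19 and 11.82 in mutant tissue, a difference of 2.23 (SE 0.41, adjusted p = 0.00388). The groups did not overlap, and mutant arrays 1 to 3 averaged 9.43 where arrays 4 to 6 averaged 11.27. Hic1, a zinc finger repressor of mesenchyme, ranged over 7.68, 7.89 and 8.27 against 8.30, 8.94 and 9.44 and was higher by 0.97 (SE 0.16, adjusted p = 0.0022). The nuclear receptor Nr2f2 was higher by 0.57 (SE 0.10, adjusted p = 0.00333) and Hoxa2, the HOX gene of the second pharyngeal arch, by 0.71 (SE 0.14, adjusted p = 0.00544). The latter rose from low levels, 3.26 ± 0.17 to 3.98 ± 0.32 (SD, n = 6). These 4 were the called genes among 11 measured members of the list, whose median was 0.43, and none was called lower.

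Tbx22, a T-box factor of posterior palate, was not among them. It ranged over 6.30, 6.56 and 8.49 in anterior and 5.37, 7.74 and 9.54 in mutant tissue, with a difference of 0.72 (SE 0.62, adjusted p = 0.438), and its lowest value of the 12 was on mutant array 1. The Tbx22 difference was 1.19 without mutant array 1 (adjusted p = 0.118) and 0.36 without mutant array 6 (adjusted p = 0.697), and it passed with array weights (1.39, adjusted p = 0.0491). Nr2f1, a nuclear receptor related to Nr2f2, likewise spanned 7.73 to 11.45 on mutant arrays with array 1 lowest and array 6 highest, against 9.04 to 10.28 in anterior tissue (difference 0.32, adjusted p = 0.696). Leaving out 1 array moved the Nr2f1 difference between 0.04 (without mutant array 6) and 0.78 (without mutant array 1), and other arrays moved it by over 1.5 times as well: it was 0.18 without control anterior array 5, 0.19 without mutant array 4 and 0.10 without mutant array 5. It was not called in any of these 12 fits, but passed with array weights (1.02, adjusted p = 0.0432) and with mutant arrays 4 to 6 only (1.36, adjusted p = 0.00752), and with mutant arrays 1 to 3 only it was -0.72 (adjusted p = 0.233). Barx1, a homeobox factor of posterior and molar mesenchyme, differed by 0.16 (adjusted p = 0.67) and Isl1, a LIM homeobox factor, by -1.05 (SE 0.52, adjusted p = 0.18). Control posterior arrays read 8.63 to 9.43 for Tbx22, 10.81 to 11.03 for Nr2f1 and 10.24 to 10.73 for Barx1.

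Among 12 measured HOX genes, 4 were higher, none lower, and all 12 differences were above 0, with a median of 0.29. The list is dim: its mean level was 4.65 in anterior and 5.00 in mutant tissue, where the array medians averaged 5.75 and 5.83. Hoxb2, expressed in hindbrain-level crest and mesoderm, rose from 5.29, 5.44 and 5.66 (lowest, median, highest) to 5.84, 6.27 and 6.48, without overlap, a difference of 0.78 (SE 0.11, adjusted p = 0.000832). Hoxa3 rose by 0.50 (SE 0.08, adjusted p = 0.00129) and Hoxb3 by 0.49 (SE 0.12, adjusted p = 0.0164), the latter with an adjusted p of 0.0631 when the sets were a block. Among 16 arch and distal factors, which include the Dlx, Hand, Prrx and Osr genes, only Dlx1 was called. It was higher by 1.12 (adjusted p = 0.0324), a call lost at 0.053 to 0.0719 without control anterior array 1, 2, 3, 4 or 5 or mutant array 3, 4, 5 or 6.

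**Figure D2:**
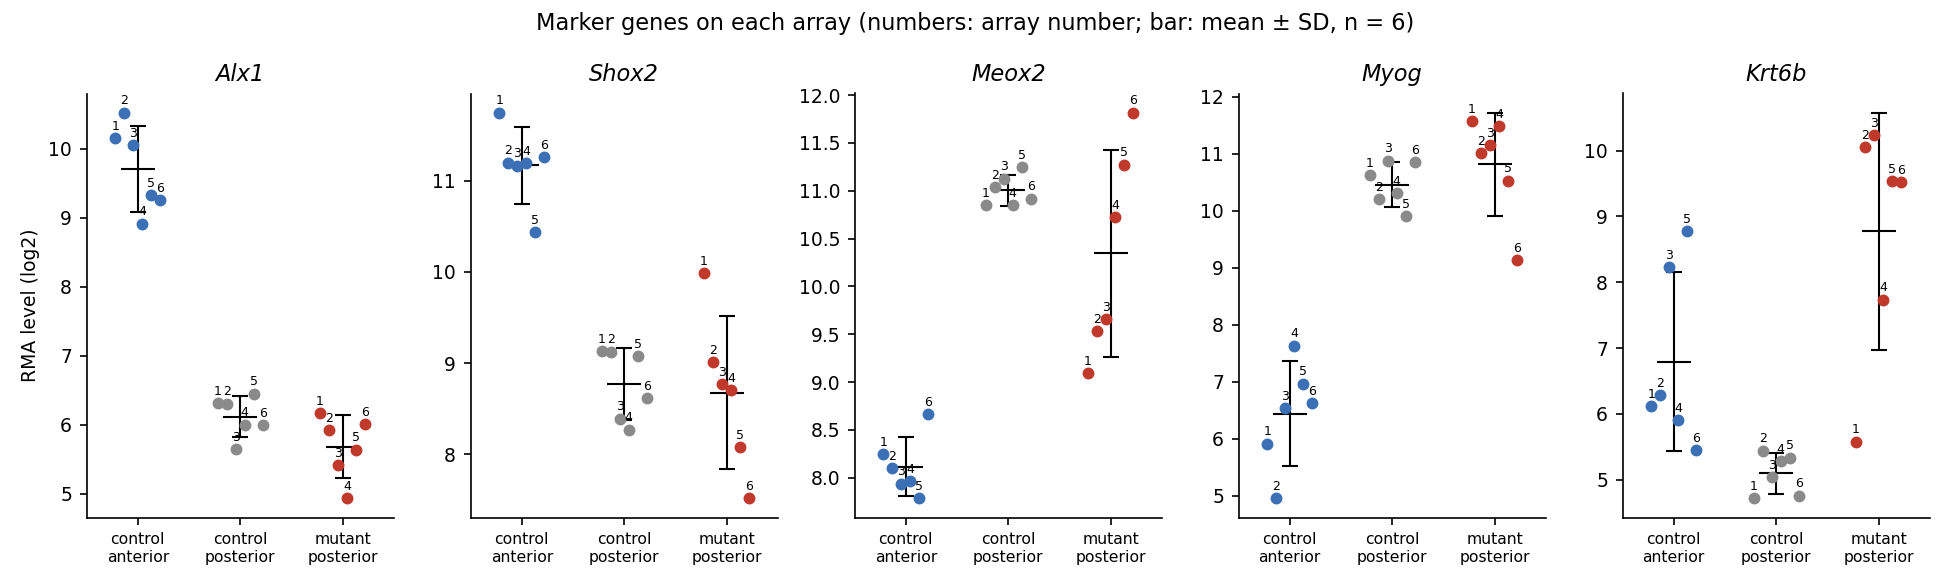
RMA level (vertical axis, log2) of 5 marker genes on each array of control anterior, control posterior and mutant posterior palate, with array numbers beside the points and bars for mean ± SD. Alx1 and Shox2 separate control anterior arrays from the others, Meox2 and Myog do so in the opposite direction, and Krt6b on mutant arrays spans 5.58 to 10.24.

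**Figure D3:**
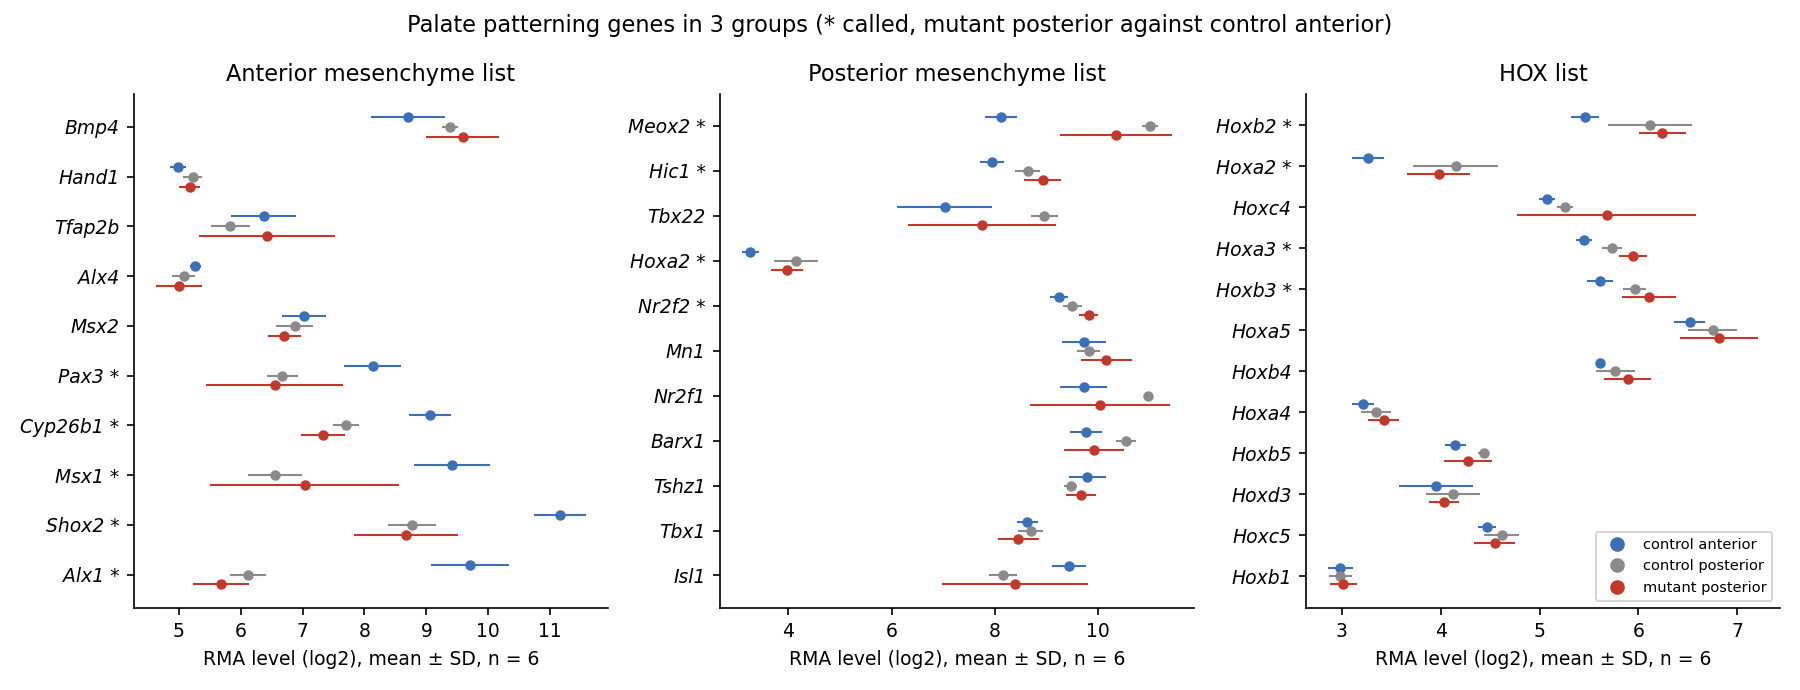
Mean level ± SD (horizontal axis, log2, n = 6) of the measured members of the anterior mesenchyme, posterior mesenchyme and HOX lists in the 3 groups, with called genes starred. In the first panel 5 genes are lower in mutant than in anterior tissue, while Tbx22, Nr2f1 and Barx1 in the second have wide mutant bars that overlap the anterior ones.

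In a fit over all 18 arrays, which share their mutant and anterior samples with the comparison above, the markers of region were set beside the control posterior level. That fit treated all arrays as independent, and whether same-numbered control anterior and posterior samples share an embryo was not tested. Alx1 differed by -3.59 (SE 0.26) between control posterior and anterior palate and by -0.44 (SE 0.26, adjusted p = 0.28) between mutant and control posterior palate. For Shox2 the same pair of differences was -2.40 (SE 0.31) and -0.09 (SE 0.31, adjusted p = 0.883), and for Meox2 2.89 (SE 0.35) and -0.65 (SE 0.35, adjusted p = 0.233). For Msx1 the pair was -2.86 (SE 0.52) and 0.48 (SE 0.52, limma adjusted p = 0.592). For Tbx22 it was 1.92 (SE 0.53) and -1.21 (SE 0.53, limma adjusted p = 0.139). Meox2 read 10.85 to 11.24 on control posterior arrays, where mutant arrays 1 to 3 averaged 9.43 and arrays 4 to 6 averaged 11.27. For all these genes the difference between mutant and control posterior palate missed the threshold, which does not show that the levels were equal.

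Many skeletal muscle genes were higher. Across 6 muscle lists, 91 of 119 measured genes were higher in mutant posterior palate, 3 were lower and 25 were not called, with a median of 2.22 against 0.02 over all genes. Of the 91, 82 were at least 2-fold and 24 at least 16-fold higher. For 79 of the 119 every mutant array lay above every anterior one, against 911 of all 18193 genes tested.

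The factors that start the muscle programme were higher. Myog, the basic helix-loop-helix factor of muscle differentiation, ranged over 4.95, 6.58 and 7.64 in anterior and 9.14, 11.08 and 11.58 in mutant tissue. The groups did not overlap, mutant array 6 was the lowest of its group, and the difference was 4.38 (SE 0.47, adjusted p = 0.000125), or 20.8-fold. Myf5, which commits cells to the muscle lineage, ranged over 3.39, 4.12 and 4.88 against 6.44, 7.91 and 9.10 and was higher by 3.79 (SE 0.38, adjusted p = 0.000101). Myod1, its partner in commitment, ranged over 4.21, 5.08 and 5.43 against 6.86, 8.27 and 9.08 and was higher by 3.27 (SE 0.34, adjusted p = 0.000108). Its second, dim probe set differed by 0.26 (adjusted p = 0.053). Myf6, the factor of late differentiation, was higher by 2.73 (SE 0.49, adjusted p = 0.00341) and spread more widely, from 5.52 to 9.37 on mutant arrays against 4.46 to 5.01 in anterior tissue.

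Of 16 measured regulators, 9 were higher and 3 lower, with a median of 0.50. Msc, a helix-loop-helix factor of pharyngeal arch muscle, was higher by 2.30 (SE 0.38, adjusted p = 0.00205), and Mef2c, a cofactor of the Myod1 family, by 1.23 (SE 0.20, adjusted p = 0.00198), with all 5 of its probe sets between 1.23 and 1.61. Mef2a was higher by 0.57 (SE 0.11, adjusted p = 0.00658). Pax7, which marks muscle stem cells, was higher by 1.10 (adjusted p = 0.0345) and Mef2d by 0.43 (adjusted p = 0.0437). The Pax7 call was lost without control anterior array 1, 2, 3, 4 or 6 or mutant array 1, 2 or 5 (adjusted p 0.0503 to 0.073), and the Mef2d call without control anterior array 1, 3, 4, 5 or 6 or mutant array 1, 3, 4, 5 or 6 (0.0518 to 0.0929).

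The lower regulators were Pax3, Dmrt2 and Eya1, which are also expressed outside muscle. Dmrt2, a factor of somite and dermomyotome, ranged over 9.80, 10.42 and 10.87 in anterior and 8.31, 8.49 and 9.86 in mutant tissue and was lower by -1.68 (SE 0.26, adjusted p = 0.00136). Eya1, a cofactor of homeobox proteins in muscle, ear and kidney, was lower by -0.95 (SE 0.23, adjusted p = 0.0144), while its other probe sets, at -0.45 and -0.61, were not called (adjusted p = 0.118 and 0.06), and with the sets as a block its adjusted p was 0.0742. Lbx1, Tcf21, Met and Six4 differed by -0.26 to 0.30 and none was called.

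Promoter windows of 300 bases, from 250 before to 50 after each start, were read from RefSeq (GRCm38.p6) for the muscle genes called higher, since the factors above bind E-boxes and MEF2 sites. Of the 91 genes, 64 had an entry, with 79 windows. CANNTG, the E-box, was present on either strand in 82.3% of these windows and in 72.3% of all 32851 promoter windows. CAGCTG, a subset of those E-boxes, was present in 40.5% and 16.3%, and the MEF2 motif in 11.4% and 3.19%. Among the 18109 windows of genes tested on the arrays, the shares of the E-box, CAGCTG and the MEF2 motif were 67.5%, 16.4% and 2.1%. These windows of Myog, Chrna1 and Ttn are shown because they belong to a regulator, a receptor subunit and a sarcomere protein that differed strongly. They lie at chr1:134289754-134290053 on the plus strand, chr2:73580289-73580588 on the minus strand and chr2:76982498-76982797 on the minus strand. Capitals mark each E-box and, in the Ttn window, also the MEF2 match that starts at -166 from the gene start. The E-boxes of Myog start at -138 and -12.
Myog: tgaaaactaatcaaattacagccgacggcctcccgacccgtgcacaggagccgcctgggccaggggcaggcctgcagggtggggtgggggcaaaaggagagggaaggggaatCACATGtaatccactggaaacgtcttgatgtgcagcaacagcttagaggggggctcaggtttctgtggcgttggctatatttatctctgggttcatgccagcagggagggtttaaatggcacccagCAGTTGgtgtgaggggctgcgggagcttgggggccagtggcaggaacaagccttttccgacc
Chrna1: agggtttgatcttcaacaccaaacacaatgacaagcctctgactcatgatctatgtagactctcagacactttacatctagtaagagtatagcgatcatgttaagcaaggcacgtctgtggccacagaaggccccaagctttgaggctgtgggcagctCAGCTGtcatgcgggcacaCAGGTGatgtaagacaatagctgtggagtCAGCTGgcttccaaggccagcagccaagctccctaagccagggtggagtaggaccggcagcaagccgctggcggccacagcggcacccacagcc
Ttn: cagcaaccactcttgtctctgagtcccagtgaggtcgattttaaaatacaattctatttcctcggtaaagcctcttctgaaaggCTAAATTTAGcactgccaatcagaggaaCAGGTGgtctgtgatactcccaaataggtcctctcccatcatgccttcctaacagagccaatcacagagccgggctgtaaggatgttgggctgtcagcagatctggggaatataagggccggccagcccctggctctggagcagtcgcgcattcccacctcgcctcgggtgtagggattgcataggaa
A match of letters is a description of the window and shows no binding.

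Genes of myoblast fusion and of late myoblasts were higher in 18 of 20 cases and lower in none, with a median of 3.37. Mymk and Mymx, the membrane proteins that fuse myoblasts, were higher by 3.20 (adjusted p = 0.000108) and 3.84 (adjusted p = 0.00018). Chrna1, the alpha subunit of the muscle acetylcholine receptor whose promoter is shown above, ranged over 5.46, 5.80 and 6.64 in anterior and 7.70, 9.70 and 10.33 in mutant tissue, a difference of 3.55 (SE 0.39, adjusted p = 0.000154). Klhl41, which stabilises thin filaments, was higher by 4.14 (SE 0.46, adjusted p = 0.000159). Kirrel3 and Nphs1, adhesion proteins related to insect fusion genes, differed by 0.10 and 0.06 and were not called.

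Among 9 measured myosin heavy chains, which are the motor proteins of the thick filament, 5 were higher and none lower, with a median of 0.57. Myh3, the embryonic chain, ranged over 5.58, 6.74 and 9.07 in anterior and 11.16, 12.32 and 13.28 in mutant tissue, a difference of 5.24 (SE 0.57, adjusted p = 0.000137). Anterior arrays 4 and 6 were the highest of their group, at 9.07 and 8.52. Myh8, the perinatal chain, ranged over 3.92, 4.65 and 6.54 against 8.47, 10.29 and 11.85 and had the largest called difference in the comparison, 5.39 (SE 0.57, adjusted p = 0.000116), or 42.0-fold. Myh7, the slow and cardiac beta chain, was higher by 3.53 (SE 0.34, adjusted p = 8.99e-05) and Myh1, an adult fast chain, by 2.44 (SE 0.49, adjusted p = 0.0064), the latter up to 7.95 on mutant arrays. The other adult fast chains, Myh2 and Myh4, lay at 3.71 ± 0.63 and 3.69 ± 0.23 in mutant tissue (SD, n = 6), differed by 0.57 and 0.22 and were not called. Myh14, a non-muscle chain of epithelium, differed by -0.82 (adjusted p = 0.07).

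Of 42 measured sarcomere genes without the heavy chains, 36 were higher and none lower, with a median of 3.61. Ttn, the giant spring protein of the sarcomere, ranged over 4.06, 4.81 and 7.26 in anterior and 8.93, 10.60 and 12.59 in mutant tissue, a difference of 5.27 (SE 0.65, adjusted p = 0.000331). Of its 6 probe sets, 5 were called higher, by 1.65 to 5.27, and the dimmest differed by 0.09. Troponins, which switch contraction on with calcium, were higher in both fibre types. Tnni1 and Tnnc1, of slow fibres, were higher by 4.87 (SE 0.50, adjusted p = 0.000108) and 4.77 (SE 0.50, adjusted p = 0.000112), and Tnnt3, of fast fibres, by 4.72 (SE 0.54, adjusted p = 0.00018). Myom2, which cross-links thick filaments at the M band, was higher by 5.16 (SE 0.52, adjusted p = 0.000107). Tpm2, Tpm3 and Nebl, which are also expressed outside skeletal muscle, differed by -0.18, -0.14 and -0.58 and were not called, nor were Mylk2, Mybpc2 and Tmod4, at 0.14, 0.08 and 0.86.

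Genes of calcium handling and energy supply were higher in 23 of 27 cases, with a median of 2.31. Ckm, the muscle creatine kinase that buffers ATP, ranged over 5.64, 6.17 and 7.40 in anterior and 8.65, 11.15 and 13.27 in mutant tissue, a difference of 4.70 (SE 0.60, adjusted p = 0.000405), or 25.9-fold. Mutant array 1 was the highest and array 6 the lowest, and no mutant array overlapped the anterior range. Sln, an inhibitor of the calcium pump, was higher by 4.68 (SE 0.48, adjusted p = 0.000108) and Casq2, a calcium store protein, by 4.42 (SE 0.52, adjusted p = 0.000225). Pgam2, the muscle form of a glycolytic enzyme, was higher by 3.23 (SE 0.46, adjusted p = 0.000816). Atp2a2, the calcium pump of most cells, Jph1, Ryr3 and Cox7a1 differed by -0.22 to 0.34 and were not called.

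At the neuromuscular junction, 7 of 12 genes were higher and none lower, with a median of 0.71. The receptor subunits Chrng, of the fetal receptor, and Chrnb1 were higher by 2.22 (SE 0.31, adjusted p = 0.000647) and 1.96 (SE 0.31, adjusted p = 0.00155), and Rapsn, which clusters the receptor, by 2.40 (SE 0.31, adjusted p = 0.000402). Chrne, the subunit of the adult receptor, lay at 5.93 ± 0.16 in anterior and 5.88 ± 0.19 in mutant tissue (SD, n = 6) and was not called. Agrn and Lrp4, nerve-derived signal and its receptor, differed by -0.30 and -0.28 and were not called.

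Muscle gene levels spanned a wider range on mutant than on anterior arrays, a difference in spread that was not tested. The mean over the 42 sarcomere genes was 6.04 to 7.28 on anterior arrays, 8.27 to 10.66 on mutant arrays, and 8.27 to 9.25 on control posterior arrays. Mutant array 6 was the lowest and array 1 the highest of the mutant arrays, and the same arrays were lowest and highest in the mean over calcium and energy genes, 7.01 on array 6 and 9.71 on array 1. The mean over basal and simple epithelium genes was lowest on mutant array 1, at 8.31, against 9.90 to 10.75 on the other mutant arrays, and its part in the muscle values was not tested. Without mutant array 1 the difference was 4.23 both in Myog and in Ckm. In the fit over 18 arrays, Myog differed between mutant and control posterior palate by 0.36 (SE 0.41, adjusted p = 0.617), Ckm by 2.36 (SE 0.56, adjusted p = 0.00981) and Myf6 by 1.55 (SE 0.46, adjusted p = 0.0328). Among the other regulators, Mef2a, Mef2c and Mef2d were called higher there, by 0.38 to 0.60, and Dmrt2 lower, by -0.81. Atp1b4, among the 10 largest higher genes of the main comparison at 5.06, was also called higher there, by 1.61 (limma adjusted p = 0.0285). Fgfr4, a receptor of muscle progenitors, was called higher by 0.93 (limma adjusted p = 0.0161). Myf5, Myod1, Myh3, Myh8, Ttn, Tnni1, Tnnc1, Sln, Casq2 and Chrna1 differed by -0.05 to 1.37. None of these was called (limma adjusted p 0.0815 to 0.945), which does not show that the levels were equal.

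**Figure D4:**
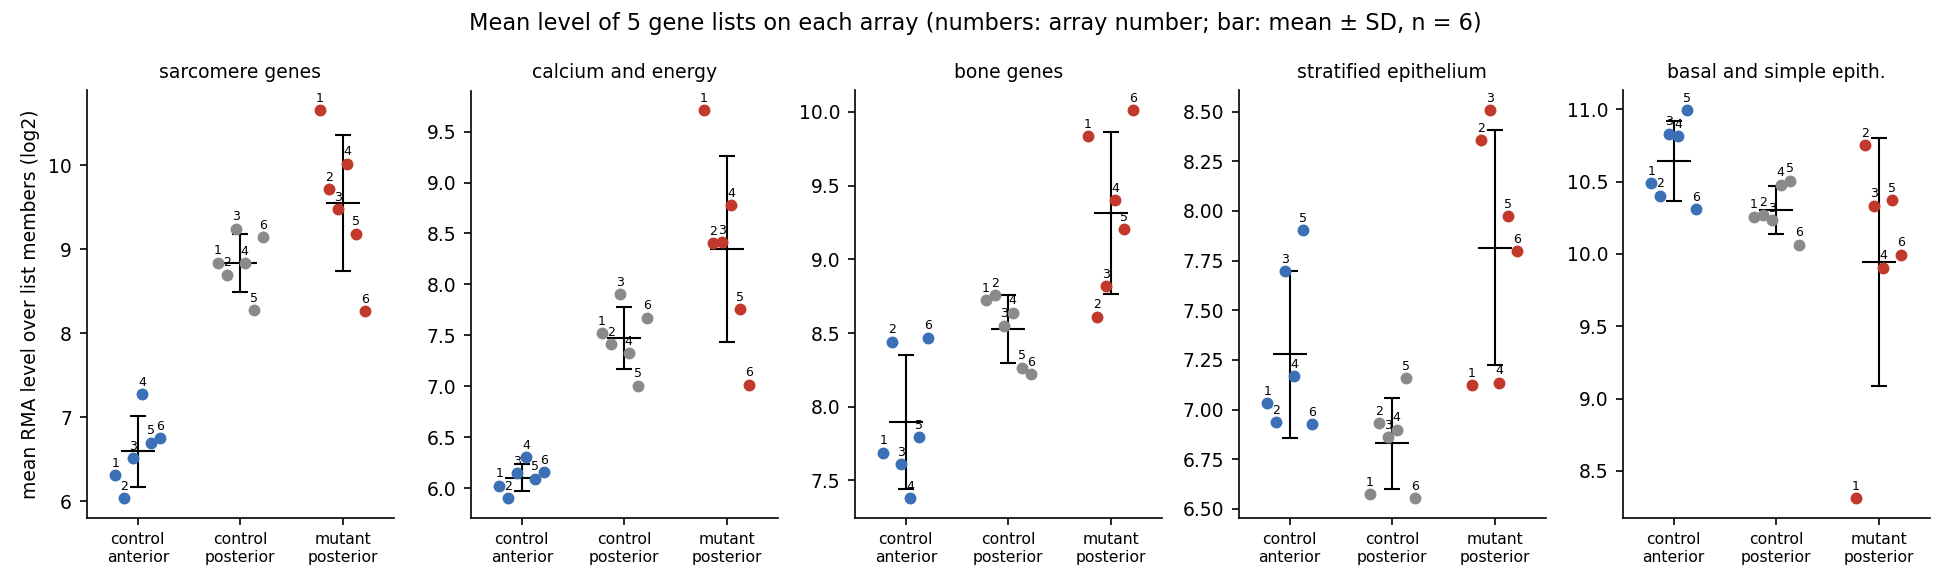
Mean level (vertical axis, log2) over the measured members of 5 gene lists on each array of the 3 groups, with array numbers beside the points and bars for mean ± SD. Mutant arrays lie above anterior arrays for sarcomere and for calcium and energy genes, and mutant array 1 has the highest values there and the lowest for basal and simple epithelium, 8.31.

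Some genes of tendon, which attaches to muscle, and of bone were also higher. Of 14 tendon genes, 8 were higher and none lower, with a median of 0.93. Kera, a proteoglycan of tendon and cornea, ranged over 5.89, 6.53 and 7.22 in anterior and 7.89, 9.44 and 11.87 in mutant tissue and was higher by 3.27 (SE 0.56, adjusted p = 0.00248). Thbs4, a matrix protein of the muscle attachment, was higher by 2.59 (SE 0.26, adjusted p = 0.000107) and Tnmd, a marker of mature tenocytes, by 1.69 (SE 0.34, adjusted p = 0.00642). Scx and Mkx, the transcription factors of tendon, lacked a call at 0.45 and -0.07.

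Of 11 bone genes, 7 were higher and none lower, with a median of 1.01. Dmp1, a matrix protein of osteocytes and dentin, ranged over 4.88, 6.88 and 9.5 in anterior and 10.70, 11.64 and 12.77 in mutant tissue, a difference of 4.68 (SE 0.74, adjusted p = 0.00154), or 25.6-fold. The anterior arrays were widely spread, with arrays 2, 5 and 6 at 7.73 to 9.5 and arrays 1, 3 and 4 at 4.88 to 6.04, and none reached the mutant range. Phex, an endopeptidase of osteocytes, was higher by 3.46 (SE 0.48, adjusted p = 0.000628) and Sost, the osteocyte inhibitor of WNT signalling, by 1.5 (SE 0.26, adjusted p = 0.00241). Sp7 and Alpl, of osteoblasts, lacked a call at 0.66 and 0.37. In control posterior palate Dmp1 read 8.23 to 9.56, and the mutant exceeded it by 2.54 (SE 0.65, adjusted p = 0.0153) in the fit over 18 arrays. The mutant exceeded control posterior palate there by 2.24 in Phex and 1.26 in Sost (limma adjusted p = 0.00229 and 0.00147). Between control posterior and anterior palate Dmp1, Phex and Sost differed by 2.14, 1.22 and 0.24 and none was called (limma adjusted p = 0.073, 0.11 and 0.583).

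Of 22 cartilage genes, 5 were higher and 1 lower. Ihh, the hedgehog ligand of growth cartilage, was higher by 0.81 (SE 0.17, adjusted p = 0.00834), while Col2a1 and Acan, the main cartilage matrix genes, stood at 1.29 (adjusted p = 0.17) and 0.73 (adjusted p = 0.287), neither called. Of 10 smooth muscle genes, 4 were higher, Des at 3.01, Synpo2 at 2.68, Acta2 at 1.55 and Smtn at 0.78, of which Des, Synpo2 and Acta2 are also made by skeletal muscle or its precursors. Myh11, Cnn1, Tagln and Myocd, which are more specific to smooth muscle, differed by -0.29 to 0.34 and none was called.

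Epithelial genes were read from lists of stratified and of basal and simple epithelium. Of 32 stratified epithelium genes 9 were higher and 1 lower, with a median of 0.31. Krt4, a keratin of the upper layers of oral epithelium, ranged over 9.23, 9.93 and 10.60 in anterior and 11.32, 12.33 and 13.06 in mutant tissue, without overlap, a difference of 2.24 (SE 0.33, adjusted p = 0.00107). Krt13, which pairs with Krt4, was higher by 2.03 (SE 0.50, adjusted p = 0.0174), Csta1, a protease inhibitor of the cornified layer, by 1.86 (SE 0.42, adjusted p = 0.011) and Calml3, a calmodulin-like protein of keratinocytes, by 1.83 (SE 0.46, adjusted p = 0.0178). With the sets as a block Krt4 kept its call and the other 3 lost theirs, at adjusted p-values of 0.0615 to 0.0948. Flg, Lor and Ivl, genes of the late cornified envelope, differed by 0.00, -0.02 and 0.02.

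Krt6b, a keratin of stressed and suprabasal epithelium, was the marker without a call. It ranged over 5.45, 6.20 and 8.78 in anterior and 5.58, 9.52 and 10.24 in mutant tissue, a difference of 1.98 (SE 0.82, adjusted p = 0.11, limma). Anterior arrays 3 and 5 read 8.23 and 8.78 where the other anterior arrays read 5.45 to 6.28, and mutant array 1 read 5.58 where the others read 7.74 to 10.24. Without mutant array 1 the difference was 2.62 (adjusted p = 0.0175). Control posterior arrays read 4.72 to 5.44, and in the fit over 18 arrays the mutant stood 3.68 above them (SE 0.70, adjusted p = 0.00255).

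Of 29 basal and simple epithelium genes, 28 had differences below 0, 5 were called lower and none higher, with a median of -0.71. Mutant array 1 weighs on these differences. The list mean was 8.31 on that array and 9.90 to 10.75 on the other mutant arrays, against 10.31 to 11.00 on anterior arrays. Cldn6, a tight junction protein of embryonic epithelium, was lower by -1.57 (SE 0.37, adjusted p = 0.0138), Elf5, an epithelial ETS factor, by -1.37 (SE 0.33, adjusted p = 0.0151), and Col17a1, a collagen of hemidesmosomes, by -1.25 (SE 0.31, adjusted p = 0.0177). Lamb3, a laminin chain of the basement membrane, was lower by -1.13 (SE 0.24, adjusted p = 0.00922). With the sets as a block none of the list was called lower, and without mutant array 2 the count was 8. Krt5 and Itga6, of basal cells, differed by -0.02 and -0.01, and Krt14, whose promoter drives the Cre, read 12.33 to 13.33 in anterior and 10.77 to 12.87 in mutant tissue (difference -0.94, adjusted p = 0.0511). Krt14 passed the threshold without control anterior array 2 (-1.05, adjusted p = 0.0472), mutant array 2 (-1.13, adjusted p = 0.0183) or mutant array 3 (-1.06, adjusted p = 0.0442). Cdh1, the adhesion protein of all epithelium, read 8.25 on mutant array 1 and its difference was -1.20 (adjusted p = 0.0946), and without that array -0.71 (adjusted p = 0.0276).

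Of 21 genes of nasal and glandular epithelium, 3 were lower and none higher. Six3, a homeobox factor of forebrain and olfactory placode, ranged over 7.59, 8.17 and 8.52 in anterior and 4.72, 5.70 and 6.03 in mutant tissue (difference -2.53, SE 0.22, adjusted p = 4.96e-05), although its dimmer probe sets, at 0.14 and -0.23, were not called. Reg3g, a secreted antimicrobial lectin, was lower by -2.52 (SE 0.49, adjusted p = 0.0055), and Bpifa1, a secreted protein of nasal lining, by -2.43 (SE 0.63, adjusted p = 0.0211). The Bpifa1 call was lost with the sets as a block (adjusted p = 0.105). Of 13 enamel and dentin genes, Dmp1 was higher and 2 were lower, among them Ambn, an enamel matrix protein, at -2.02 (SE 0.53, adjusted p = 0.0214). Foxj1 and Tekt1, of ciliated cells, differed by -1.26 and -1.01 and were not called.

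The largest lower genes after Alx1 came from no single list. Svopl, a transporter-like protein, ranged over 7.39, 7.96 and 8.52 in anterior and 3.67, 4.25 and 5.43 in mutant tissue (difference -3.65, SE 0.30, adjusted p = 3.54e-05), and control posterior arrays read 6.25 to 7.18. Gal, the neuropeptide galanin, was lower by -3.00 (SE 0.38, adjusted p = 0.000362), Serpinb7, a protease inhibitor of epidermis, by -2.87 (SE 0.24, adjusted p = 3.54e-05), and Sp8, a zinc finger factor of face and limb ectoderm, by -2.85 (SE 0.44, adjusted p = 0.00133). Sp8 read 8.18 and 7.12 on anterior arrays 2 and 3 and 3.05 to 3.76 on mutant arrays. Mmp12, the macrophage elastase, was lower by -2.69 (SE 0.40, adjusted p = 0.00107). Gt(ROSA)26Sor, a noncoding RNA, Ang, a ribonuclease, Zfp874a, a zinc finger gene, and Hbb-y, the embryonic beta globin, were lower by -3.43, -2.95, -2.75 and -2.90. For these 4 genes the control posterior means were 8.49, 9.26, 7.47 and 13.08 and the control anterior means 8.29, 9.28, 7.37 and 13.05, with the mutant means far below both. Genotype, litter and labelling cannot be told apart here.

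Signalling genes were called in both directions. Of 19 WNT inhibitors, 4 were higher and 2 lower. Dkk4, a secreted inhibitor of WNT receptors, read 4.07 to 5.80 on anterior arrays and 4.34 on mutant array 1 but 7.22 to 8.99 on the other mutant arrays, a difference of 2.90 (SE 0.64, adjusted p = 0.0104). With the sets as a block its adjusted p was 0.0646. Dkk1, a related inhibitor, was higher by 1.45 (adjusted p = 0.042), a call lost without control anterior array 1, 4 or 5 or mutant array 1, 4 or 6 (adjusted p 0.0658 to 0.0882), and Dkk3 by 0.95 (SE 0.22, adjusted p = 0.0125). Of 16 WNT target genes 3 were higher and none lower. Axin2 and Lef1, which read out WNT activity, differed by -0.04 (adjusted p = 0.911) and 0.29 (adjusted p = 0.174). Lef1 passed without control anterior array 6, at 0.40 (adjusted p = 0.0484).

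Among 20 TGF-beta ligands, receptors and SMADs, 4 were higher and 1 lower. Tgfbr2 itself, the gene deleted in epithelium, ranged over 10.24, 10.53 and 10.78 in anterior and 10.63, 11.05 and 11.39 in mutant tissue, a difference of 0.48 (SE 0.13, adjusted p = 0.0259). Its dimmer probe sets, at 0.32 (adjusted p = 0.0575) and 0.03 (adjusted p = 0.838), were not called. The call was lost without control anterior array 4, 5 or 6 (adjusted p 0.0507 to 0.0574). Whether its probes lie in the deleted part was not examined and most cells keep the gene, so the level does not check the labels. Tgfbr3, the co-receptor betaglycan, was higher by 1.05 (SE 0.16, adjusted p = 0.00135), Ltbp2, a matrix protein of the latent TGF-beta binding family, by 1.52 (SE 0.34, adjusted p = 0.0109), and Smad7, the inhibitory SMAD, was lower by -0.32 (SE 0.07, adjusted p = 0.0132). Of 21 TGF-beta target genes 6 were higher, among them Acta2 at 1.55, Ltbp2 at 1.52 and Timp3, an inhibitor of matrix proteases, at 0.88, and 2 lower, among them Smad7. The ligands Tgfb1, Tgfb2 and Tgfb3 lacked a call at 0.22, 0.05 and -0.05.

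Of 22 FGF genes 3 were higher and none lower. Fgfr4, a receptor of muscle progenitors, was higher by 2.10 (SE 0.27, adjusted p = 0.000462) and Fgf7, a mesenchymal ligand that acts on epithelium, by 1.02 (SE 0.23, adjusted p = 0.0111), while Fgf10, a related ligand, differed by 0.49 (adjusted p = 0.113). Of 22 BMP genes, 4 were higher, led by the antagonists Grem1 at 1.61 (SE 0.27, adjusted p = 0.00241) and Chrd at 0.71 (SE 0.12, adjusted p = 0.00257), and 3 lower, among them the ligand Bmp6 at -0.60 (SE 0.12, adjusted p = 0.00666). Of 14 hedgehog genes only the target Foxf1 was called, at -1.20 (SE 0.17, adjusted p = 0.000681), with 8.34 to 9.47 on anterior and 7.72 to 8.09 on mutant arrays. Ptch1 and Gli1, the usual readouts of the pathway, lacked a call at -0.32 and -0.22. Of 14 retinoic acid genes 3 were higher and 3 lower. Rbp4, the retinol carrier, was higher by 1.91 (SE 0.21, adjusted p = 0.000156) and the receptor Rarb by 1.09 (SE 0.24, adjusted p = 0.00991), and Cyp26b1 was lower, as given above.

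Lists for other cell types were read the same way. Of 20 macrophage and leukocyte genes 8 were higher, by 0.43 to 0.81, among them C1qa, a complement subunit, at 0.71 (SE 0.13, adjusted p = 0.00309), and Cd52, a leukocyte surface protein, was lower by -1.08 (SE 0.17, adjusted p = 0.00155). Tpsab1, a mast cell tryptase, read 4.3 to 4.6 on anterior and 5.83 to 9.46 on mutant arrays (difference 2.91, SE 0.52, adjusted p = 0.00333), but it was the only called gene of 10 in its list, and Kit and Cpa3, which also mark mast cells, differed by -0.04 and 0.47. Of 14 endothelial genes none was higher and 2 were lower, with Pecam1 and Cdh5 at -0.04 and -0.05. Of 14 Schwann and neuronal genes 1 was called, and the list mean ranged from 6.70 to 10.17 on mutant arrays. Cell cycle genes were lower in 6 of 27 cases, by -0.60 to -0.30, with a median of -0.18, and Mki67 and Top2a differed by -0.21 and -0.06. Of 18 immediate early and heat shock genes, 2 were higher, Egr1 at 0.86 (SE 0.14, adjusted p = 0.00188) and Egr2 at 1.18 (SE 0.21, adjusted p = 0.00328), and 2 lower, among them Jun at -0.55 (SE 0.10, adjusted p = 0.00458). Of 11 red cell genes 1 was higher, Ank1 at 1.68, a gene that muscle also expresses, and 2 embryonic globins were lower.

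**Figure D5:**
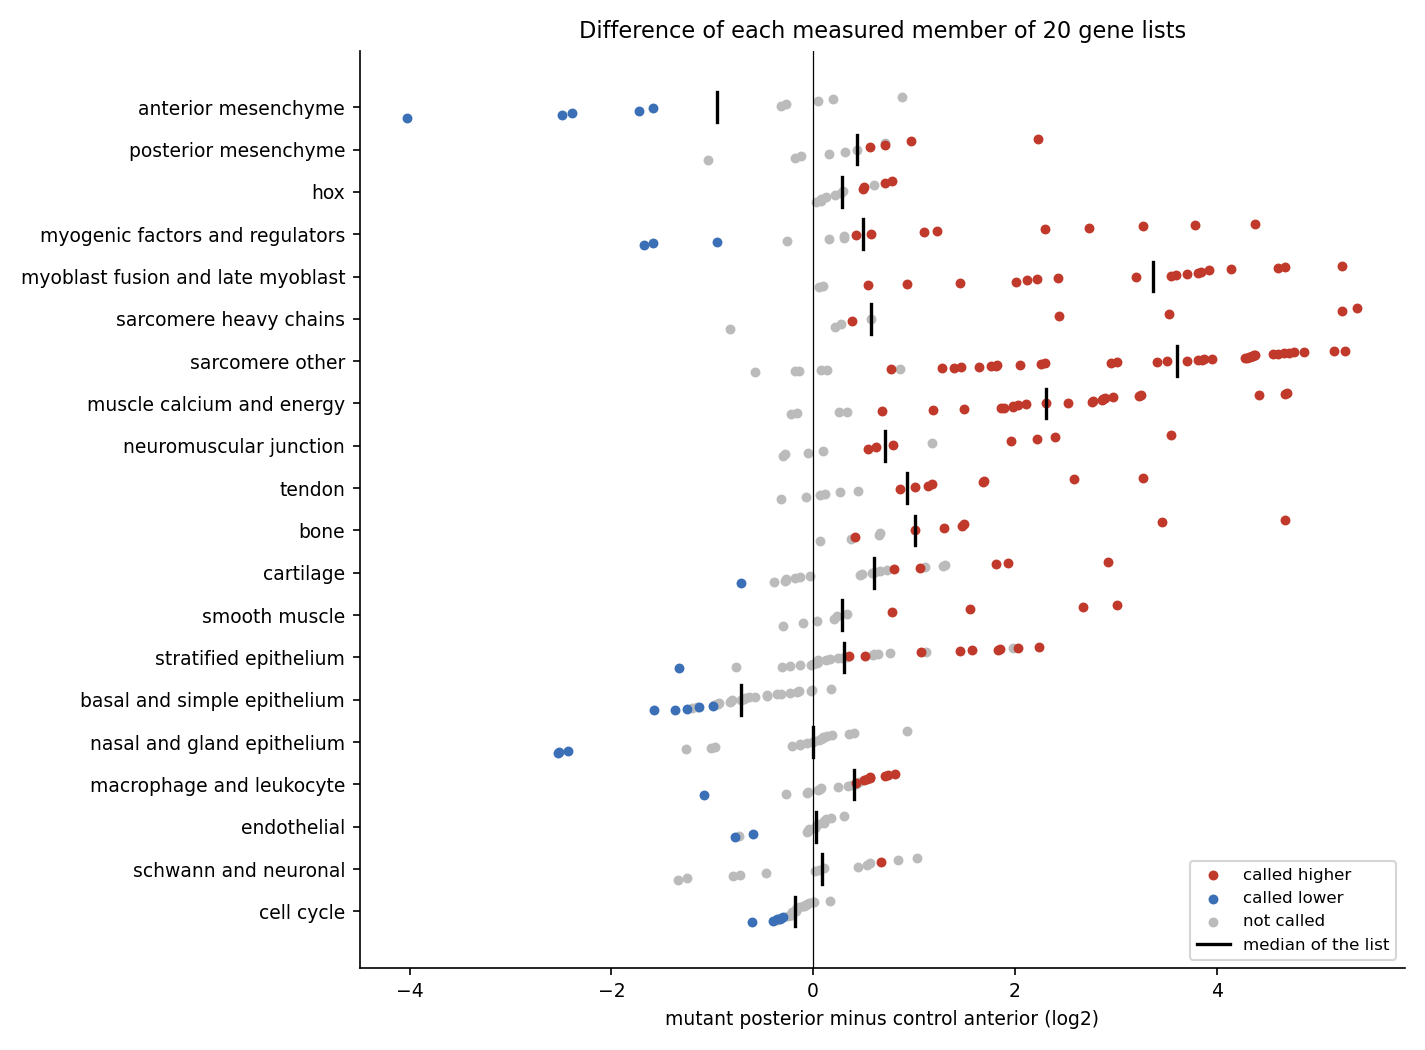
Difference between mutant posterior and control anterior palate (horizontal axis, log2) for each measured member of 20 gene lists, with called genes in red (higher) and blue (lower) and the median of each list as a black line. Medians run from -0.95 for anterior mesenchyme to 3.61 for sarcomere genes, against 0.02 over all genes.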

How the data were processed

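Total RNA was labelled with biotin and hybridised to 1-colour Affymetrix arrays, and the authors deposited log2 values made with RMA, whose version is not given in the sources used here; the method is named per the submitters' processing notes. The number of arrays limits the precision.

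Of 45101 probe sets, 34958 had 1 gene symbol, 932 had several and 9211 were unlisted, and 64 were controls. Each gene was read from its brightest probe set over the 12 arrays (18193 genes, of which 18032 matched RefSeq). The groups were compared with limma 3.58.1 (lmFit and eBayes, R 4.3.3, statmod 1.5.0, 10 residual degrees of freedom) at a Benjamini-Hochberg adjusted p under 0.05, and 28 alternatives were run. Figures were drawn with matplotlib 3.10.9 under Python 3.11.15. On simulated data for this comparison with 18193 genes, 50 changed genes of each size, 48% were recovered at a log2 change of 0.5, 84% at 1, 98% at 2 and 100% at 3, and 5.17% of calls were false.

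The members and the 33 lists were chosen with earlier results of these data known. Of 630 list entries, 41 were not measured, and some genes are in more than 1 list. Named genes were the 5 markers, Tgfbr2, all members of the anterior, posterior and regulator lists, 7 further genes, the 10 largest called differences without overlap in each direction, and up to 5 called members of every other list, or up to 2 where none was called. Other genes were chosen after their values were seen. Called members that lost their call when an array was left out were counted, and few of them are described singly. Groups share replicate numbers, but same-numbered control anterior and mutant samples did not deviate together (1 of 6 correlations over 0.1), so no pairing was used. Control anterior and control posterior samples were not checked this way. Xist minus the Y-linked mean was 3.10, -2.41, -3.32, 7.93, 8.21 and -2.11 on control anterior arrays 1 to 6. On control posterior arrays 1 to 6 it was 4.04, -2.55, -2.70, 8.12, 8.26 and -2.25. Whether same-numbered control samples share an embryo was not tested.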

Additional observations from a re-analysis of the deposited data

Results flagged for a closer look

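Among 318 sets of 6 arrays (159 named genes in both groups), 14 held 1 array far from the other 5, beyond Dixon's 95% critical value, which chance gives in about 1 in 20 groups. In control anterior palate these were Dkk4 on array 6 at 5.80 (others 4.07 to 4.53), Tshz1 on array 2 at 10.5 (9.56 to 9.75), Eya1 on array 2 at 10.1 (9.24 to 9.48), Comp on array 2 at 6.87 (4.90 to 5.39), Ckm on array 4 at 7.40 (5.64 to 6.26) and Bmp6 on array 4 at 7.75 (8.20 to 8.45). On mutant array 1 they were Barx1 at 8.81 (9.88 to 10.4), Dlx1 at 6.93 (7.97 to 8.31), Mef2a at 10.9 (10.3 to 10.4) and Spi1 at 7.45 (6.77 to 6.99). On other mutant arrays they were Hoxa2 on array 5 at 4.59 (3.72 to 4.00), Mmp12 on array 2 at 6.76 (4.42 to 5.30), Nkd1 on array 6 at 8 (7.58 to 7.72) and Birc5 on array 3 at 10.2 (10.5 to 10.6).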

How the results depend on the processing

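No named gene with a call changed direction under any of the 28 alternatives, while some uncalled ones changed sign, such as Nr2f1 (-0.72 to 1.36), Tbx22 (-0.22 to 1.65) and Barx1 (-0.16 to 0.49). With the sets of arrays as a random block, 1050 genes were called (562 higher, 488 lower), 3 anterior mesenchyme genes lower, 1 stratified gene higher and 0 basal genes lower. At an adjusted p under 0.01 the counts were 1030, 569, 461, 3, 1 and 1. With control anterior arrays 1 to 3 only, 645 genes were called (335 higher, 310 lower, 323 at least 2-fold), with 4 regulators, 3 heavy chains, 13 calcium and energy genes, 2 posterior and 1 stratified gene higher, 3 anterior and 0 basal genes lower, and Meox2 at 2.25 (limma adjusted p = 0.0608). With arrays 4 to 6 only these were 644 (399, 245, 321), 5, 3, 12, 1, 1, 3 and 0, and Meox2 at 2.21 (limma adjusted p = 0.068). These fits have fewer anterior samples, and the cause of the drop was not tested. Mutant arrays 1 to 3 only gave 4647 genes called, 2755 of them higher and 921 at least 2-fold, with 3 anterior genes lower. Mutant arrays 4 to 6 only gave 3846 genes called, 2334 of them lower, with 5 stratified genes higher and 11 basal genes lower. Array weights gave 2408 genes lower, 10 basal genes lower and Krt6b at 2.24 (limma adjusted p = 0.028). All 18 arrays in 1 fit gave 4933 genes (2530 higher, 2403 lower), 12 basal genes lower and Krt6b at 1.98 (limma adjusted p = 0.0423). Median centring gave 2478 genes lower. Without dim genes (12514 kept) 3 heavy chains were higher, since the others were not tested. Leaving out 1 array gave 2156 to 3471 genes called, 1158 to 1738 higher, 998 to 1733 lower and 493 to 651 at least 2-fold. The same fits gave 7 to 10 regulators, 35 to 36 sarcomere genes, 5 to 6 heavy chains and 21 to 24 calcium and energy genes higher, 6 to 10 stratified genes higher, 4 to 5 anterior and 4 to 8 basal genes lower. Alx1 ranged from -4.18 to -3.86, Shox2 from -2.75 to -2.26, Meox2 from 1.94 to 2.48, Myog from 4.08 to 4.72 and Krt6b from 1.69 to 2.62. With the replicate number as a block, 2163 genes were called and 21 named genes lost their call. No control anterior sample correlated best with the mutant sample of its own number. Except where stated, the cause was not tested.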

Other observations

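The genes here were chosen after their values were seen. Several further muscle genes were higher in mutant posterior palate. Itgb1bp2, an integrin-binding protein of striated muscle, was higher by 4.59 (SE 0.55, limma adjusted p = 0.000269), Cav3, the muscle caveolin, by 4.33 (SE 0.43, limma adjusted p = 0.000101), Srpk3, a muscle kinase, by 4.22 (SE 0.48, limma adjusted p = 0.000172) and Vgll2, a cofactor of TEAD factors in muscle, by 3.10 (SE 0.49, limma adjusted p = 0.00154). Col22a1, a collagen of the junction between muscle and tendon, was higher by 3.26 (SE 0.45, limma adjusted p = 0.000628). Dpt, a matrix protein of dermis and connective tissue, read 5.94 to 6.34 on anterior and 9.36 to 12.28 on mutant arrays, a difference of 4.49 (SE 0.36, limma adjusted p = 3.41e-05).

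The transcription factor Dmrta2 was lower by -1.99 (SE 0.31, limma adjusted p = 0.00138), Otx2 by -1.98 (SE 0.48, limma adjusted p = 0.0152) and Sox2 by -1.40 (SE 0.41, limma adjusted p = 0.0331). Sox2 read 8.23 at its lowest and 11.31 at its highest on mutant arrays. Pcdh8, a protocadherin, was lower by -2.35 (SE 0.27, limma adjusted p = 0.000195).

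On 10 of the 12 arrays either Xist was at 11.16 or more with the mean of 3 Y-linked genes at 3.33 or less, or Xist was at 6.25 or less with that mean at 8.27 or more. Control anterior array 1 read 10.07 for Xist and 6.98 for the Y-linked mean, and mutant array 1 read 8.13 and 7.61. Both arrays thus lay between these patterns, and whether they hold tissue of both sexes was not tested. Mutant array 1 is also the array that stood apart from the rest above.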
